A study of Mus musculus with 6 samples.

Results

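Lipid-associated macrophage genes were followed in the inguinal white adipose tissue (iWAT) of mice that lacked the zinc transporter ZIP13. The members were 10 genes, Trem2, Gpnmb, Cd9, Lgals3, Spp1, Lipa, Cd63, Itgax, Cd68 and Adgre1, and were found as every probe whose transcript accession was a RefSeq transcript of one of them. This gave 11 of the 55681 probes on the array and 10 of the 21368 genes that its probes could be matched to. WT mice were compared with Zip13-KO mice in 3 arrays each. In the Zip13-KO mice, exons 6 to 8 of the gene for ZIP13, Slc39a13, had been replaced by a Neo cassette in R1 embryonic stem cells, so that the deletion was present in the whole body and not only in adipocytes or macrophages. Both genotypes were on the C57BL/6J background after at least 7 generations of backcrossing, were given powdered food because the knockout mice have too few teeth, and were 10 weeks old. The labels list a standard and a high-fat food, and do not say which of them these mice received, nor their sex. RNA came from the whole tissue, so fewer macrophages and less of a transcript in each macrophage cannot be told apart.

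Macrophages of adipose tissue clear dead adipocytes and take up the lipid that adipocytes release. A subset of them, described in obese fat depots and called lipid-associated macrophages, carries the lipid receptor TREM2 on its surface and is rich in lysosomal and lipid-handling proteins. TREM2 binds lipids and lipoproteins, and signals through the adaptor DAP12, encoded by Tyrobp. The products of Cd68 and Adgre1 are carried by macrophages in general, while CD11c, the product of Itgax, is shared with dendritic cells. CD9, CD63, galectin-3 and lysosomal acid lipase are also made by cells other than macrophages.

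The members fell together in Zip13-KO iWAT. By limma, 9 of the 10 genes were lower in the Zip13-KO arrays, where a call required a p under 0.05 after Benjamini-Hochberg adjustment and a difference beyond 1.5-fold (0.58 in log2 units), and 0 were higher. Among all 15302 genes tested, 8.38% were lower by the same rule and 10.3% were higher. The falls ran from 14.3-fold for Trem2 and 9.29-fold for Spp1 to 1.51-fold for Cd9, and the gene that was not called was Cd63. The median log2 difference, Zip13-KO minus WT, was -1.63 over the 10 members and -0.00051 over all genes tested. All 3 Zip13-KO arrays lay below all 3 WT arrays for 10 of the 10 members, an order that 25.9% of all genes tested showed, and all 3 lay above for 0 members, as against 29.2% of all genes. At an adjusted p under 0.01, 4 members (Trem2, Gpnmb, Lgals3 and Cd68) were lower, against 3.3% of all genes, and without a fold threshold 9 were, against 15.2%.

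The promoters that hold a binding motif for the transcription factor AP-1 are shown because 4 members share it. The difference was negative for all 10 members, whether or not a match was found, and 9 were called lower. The part of AP-1 in these differences was not tested. Of the 10 members, 9 were matched to RefSeq promoters of assembly GRCm38.p6 (250 bases before to 50 bases after the transcript start), 10 promoters in all since Spp1 has 2, and Adgre1 had no entry. The letters TGANTCA, searched on both strands, were found in 4 of the 10 promoters and in 7.81% of all 32851 promoters of the same length. The sequences read 5′ to 3′ along the gene, with the match in capitals.
Trem2, chr17:48346151-48346450, + strand: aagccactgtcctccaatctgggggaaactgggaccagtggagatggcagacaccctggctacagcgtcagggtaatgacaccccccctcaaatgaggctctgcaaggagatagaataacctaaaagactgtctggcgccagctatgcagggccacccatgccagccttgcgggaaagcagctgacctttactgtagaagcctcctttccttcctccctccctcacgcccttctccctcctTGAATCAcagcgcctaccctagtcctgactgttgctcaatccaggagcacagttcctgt
Gpnmb, chr6:49036268-49036567, + strand: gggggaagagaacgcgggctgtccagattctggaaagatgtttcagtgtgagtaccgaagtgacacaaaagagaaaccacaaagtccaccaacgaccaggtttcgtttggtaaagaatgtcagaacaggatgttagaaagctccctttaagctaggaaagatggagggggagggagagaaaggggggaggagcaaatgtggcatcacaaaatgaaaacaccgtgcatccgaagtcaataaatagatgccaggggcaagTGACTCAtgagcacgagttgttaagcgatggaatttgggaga
Cd68, chr11:69666121-69666420, - strand: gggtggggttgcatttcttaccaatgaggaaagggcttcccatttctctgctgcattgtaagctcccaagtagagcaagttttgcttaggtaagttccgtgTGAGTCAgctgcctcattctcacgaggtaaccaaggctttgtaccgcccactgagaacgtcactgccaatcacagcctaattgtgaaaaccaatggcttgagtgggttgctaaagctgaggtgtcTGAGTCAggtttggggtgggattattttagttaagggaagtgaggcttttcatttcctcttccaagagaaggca
Itgax, chr7:128129300-128129599, + strand: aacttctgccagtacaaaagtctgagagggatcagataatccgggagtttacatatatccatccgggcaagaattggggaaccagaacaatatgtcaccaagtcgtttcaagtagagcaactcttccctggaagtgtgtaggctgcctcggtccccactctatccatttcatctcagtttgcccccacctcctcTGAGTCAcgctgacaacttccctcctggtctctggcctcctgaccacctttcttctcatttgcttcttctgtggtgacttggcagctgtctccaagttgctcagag
The match began at base -9 from the transcript start in Trem2, at -56 in Itgax, at 8 in Gpnmb, and at both -149 and -24 in Cd68. The letters GAGGAAGT, a binding motif of the myeloid factor PU.1, were found in 1 member promoter, of Spp1, and in 3.2% of all promoters. The E-box CACGTG, which MiT/TFE factors of lysosomal genes bind, was in 0 of the 10 and in 7.15% of all promoters, and its extended form TCACGTGA, which contains it, in 0 and in 0.974%. A match or its absence describes these letters in this window only.

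Expression was measured on 6 one-colour arrays, in which a brighter spot means more of the transcript that its probe captures. They shared 1 slide, with 58.8% to 63.2% of spots well above background and none saturated. Pearson's r, across genes that are not independent replicates, ranged from 0.9856 to 0.9933 within WT, from 0.9942 to 0.9954 within Zip13-KO and from 0.9601 to 0.9838 across the genotypes. The labels name the arrays only by genotype and replicate, so the p values measure the spread between these 3 and 3 samples. The smallest two-sided p of an exact permutation test on 3 and 3 arrays is 0.1. Slc39a13, the deleted gene, was measured by 1 probe, whose place relative to the deleted exons was not determined, and went from 11.29, 10.87 and 10.72 in WT to 6.76, 6.66 and 6.47 in Zip13-KO iWAT, a log2 difference of -4.33 (limma adjusted p = 0.00128). All 3 Zip13-KO arrays were below the WT arrays.

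Trem2, the lipid receptor, had a normalized log2 intensity of 12.86, 10.83 and 11.42 in WT replicates 1 to 3. In Zip13-KO replicates 1 to 3 it was 7.64, 7.61 and 8.33. The lowest WT array was 2.49 log2 units above the highest Zip13-KO array, and the WT arrays were further apart than the Zip13-KO arrays, with WT replicate 1 far above the other two. WT iWAT had a mean of 11.70 ± 1.05 (SD, n = 3) and Zip13-KO iWAT one of 7.86 ± 0.41 (SD, n = 3), a log2 difference of -3.84 (standard error 0.53, 95% confidence interval -5.12 to -2.56, adjusted p = 0.00688 from limma). Trem2 was thus 14.3-fold lower (5.89 to 34.8), and was in place 10 when the 15302 genes were ordered from the greatest fall.

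Gpnmb, a membrane glycoprotein of lysosomes that lipid-laden macrophages make, was at 11.10, 10.19 and 10.61 in WT iWAT. Its log2 intensity was 8.48, 8.21 and 8.73 in Zip13-KO iWAT. The genotypes did not overlap, with 1.47 log2 units between the nearest arrays. The difference of -2.16 (standard error 0.25, adjusted p = 0.00548) made it 4.48-fold lower (2.93 to 6.84).

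Of the secreted members, Spp1 encodes osteopontin, an integrin ligand that draws in and holds macrophages. Its log2 intensity was 9.14, 6.72 and 8.45 in the WT arrays. In the Zip13-KO arrays it was 5.04, 4.60 and 5.03. The genotypes did not overlap, and the range of the WT arrays, 2.42, was the widest of the 10 members. Spp1 was 9.29-fold lower (3.40 to 25.3), a log2 difference of -3.22 (standard error 0.60, adjusted p = 0.0124). The size depends on the background correction, since the difference was -1.85 with normexp and -2.18 on the deposited table of values, which is not corrected for background.

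Lgals3 encodes galectin-3, a secreted lectin that binds β-galactosides and is used as a macrophage marker. It was at 15.32, 15.17 and 15.09 in WT and at 13.57, 13.56 and 13.58 in Zip13-KO iWAT. The Zip13-KO arrays were almost level with each other and lay 1.51 log2 units below the lowest WT array. The log2 difference was -1.62 (standard error 0.08, adjusted p = 0.00276), which is 3.08-fold lower (2.67 to 3.55), with an interval narrower on the log2 scale than those of the other members.

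CD9 and CD63 are tetraspanins, membrane proteins that organize other receptors, CD9 at the surface and CD63 mainly in late endosomes and lysosomes. Cd9 was at 12.17, 11.77 and 12.07 in WT and at 11.31, 11.30 and 11.59 in Zip13-KO iWAT. The nearest arrays of the 2 genotypes were 0.17 apart, and the fall was close to the fold threshold, at -0.60 (standard error 0.14, adjusted p = 0.0225) or 1.51-fold (1.2 to 1.91). Cd63 was at 15.57, 15.33 and 15.19 in WT and at 15.00, 14.94 and 15.10 in Zip13-KO iWAT. It was not called, with a difference of -0.35 (standard error 0.12, 95% confidence interval -0.63 to -0.07, adjusted p = 0.0620), smaller than the range of 0.38 of the WT arrays. The interval runs from 1.05-fold to 1.55-fold lower.

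Lipa encodes lysosomal acid lipase, which splits the cholesteryl esters and triglycerides that reach the lysosome. Its log2 intensity was 12.13, 11.16 and 11.34 in WT and 10.53, 10.61 and 10.48 in Zip13-KO iWAT. WT replicate 1 stood above the other WT arrays, which were 0.55 or more above every Zip13-KO array. The difference was -1.0 (standard error 0.25, adjusted p = 0.0268), or 2.0-fold lower (1.32 to 3.05). Cd68, a glycoprotein of macrophage endosomes and lysosomes that binds oxidized lipoproteins, was at 14.33, 13.48 and 13.66 in WT and at 11.92, 11.60 and 12.33 in Zip13-KO iWAT. No array of one genotype reached those of the other, and Cd68 was 3.65-fold lower (2.29 to 5.83), with a difference of -1.87 (standard error 0.28, adjusted p = 0.00775).

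Itgax encodes CD11c, an integrin chain that pairs with CD18. It was at 10.37, 11.19 and 10.71 in WT and at 9.85, 9.80 and 10.03 in Zip13-KO iWAT. It was the 1 member for which WT replicate 1 was the lowest of the WT arrays and not the highest, and it was 1.82-fold lower (1.28 to 2.59), with a difference of -0.86 (standard error 0.21, adjusted p = 0.0253). Adgre1, which encodes an adhesion receptor used to mark mouse macrophages, was the 1 member with 2 probes, both for the same transcript. The brighter probe, which stood for the gene, gave 12.84, 12.23 and 11.85 in WT and 10.75, 10.31 and 10.95 in Zip13-KO iWAT, and was 3.11-fold lower (1.92 to 5.05), a difference of -1.64 (standard error 0.29, adjusted p = 0.0110). The other probe gave 11.90, 11.31 and 11.04 in WT and 9.82, 9.31 and 10.14 in Zip13-KO iWAT, a difference of -1.66 (standard error 0.29). Both probes kept the genotypes apart, and in a fit over probes 10 of the 11 member probes were lower, against 8.35% of all named probes.

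**Figure D1:**
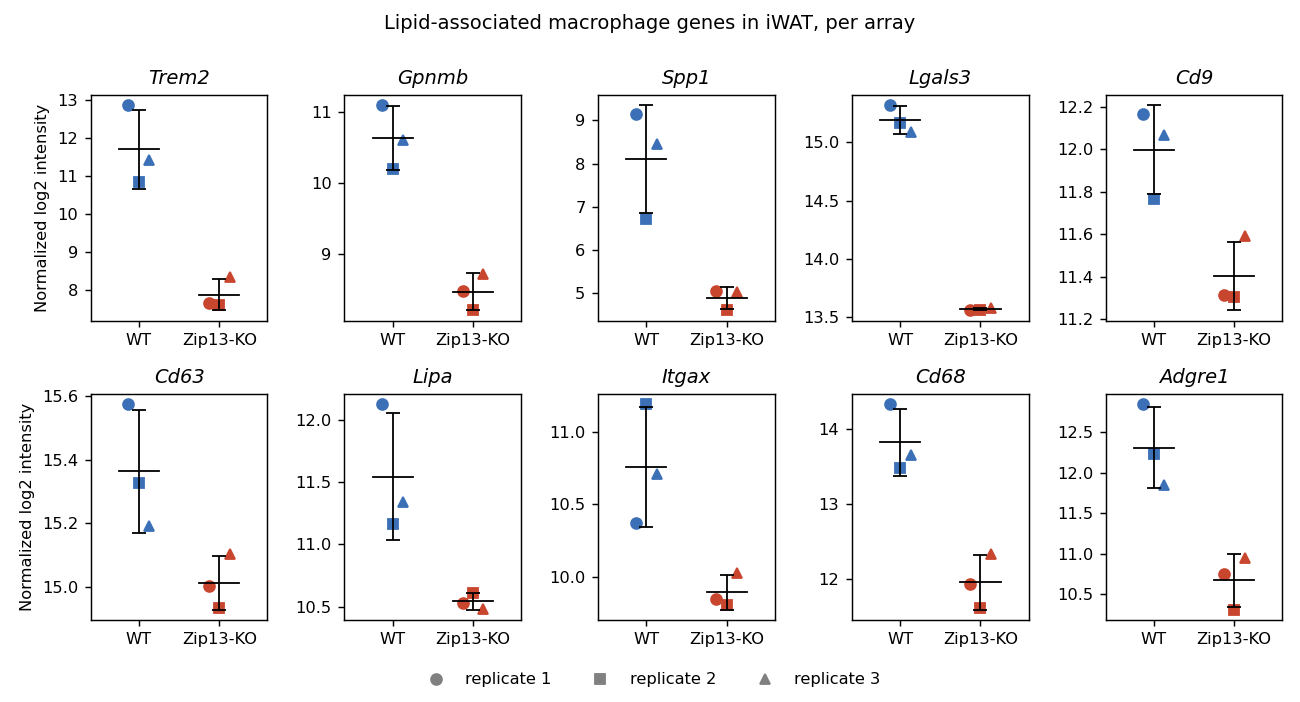
Normalized log2 intensity of the 10 members in each of the 3 WT (blue) and 3 Zip13-KO (red) arrays, with the symbol giving the replicate, the horizontal line the mean and the bar 1 SD, each panel with its own axis that does not start at 0. In every panel the 3 Zip13-KO arrays lie below the 3 WT arrays, by as little as 0.09 between the nearest arrays for Cd63.

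**Figure D2:**
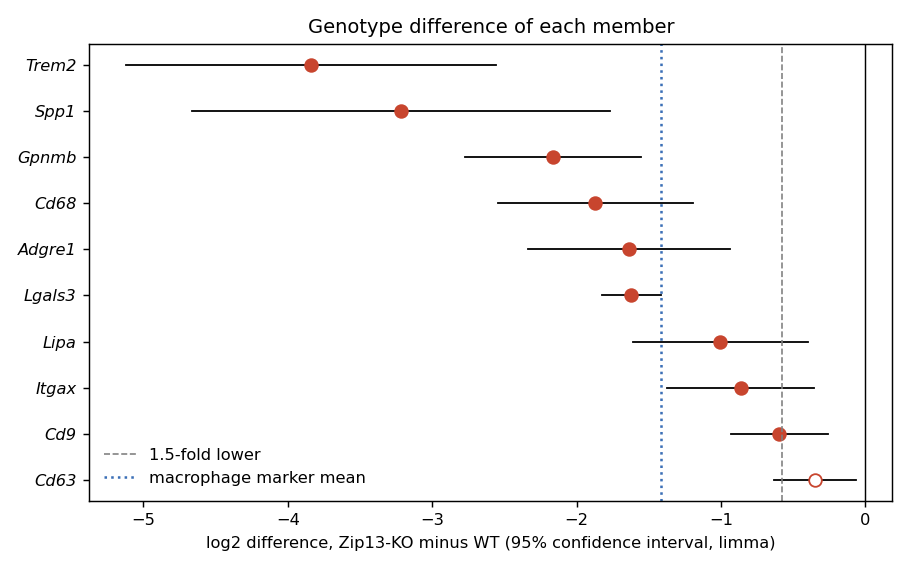
Log2 difference of each member, Zip13-KO minus WT, with its 95% confidence interval from limma over 3 arrays per genotype, filled where the gene was called, with a dashed line at 1.5-fold lower and a dotted line at the difference of the macrophage marker mean, -1.42. The differences run from -3.84 for Trem2 to -0.35 for Cd63, the open circle.

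The spread within a genotype was shared across members. WT replicate 1 was the highest WT array for 9 of the 10 members, WT replicate 2 was the lowest for 6, and Zip13-KO replicate 2 was the lowest Zip13-KO array for 9. The WT arrays spanned a wider range than the Zip13-KO arrays for 10 of the 10 members, and the difference between genotypes was larger than the range of the WT arrays for 9, all but Cd63. How many of all genes show these patterns was not counted. Across all genes tested the WT arrays also agreed less, with Pearson's r of 0.9856 to 0.9933 within WT and 0.9942 to 0.9954 within Zip13-KO. All 10 members were well above background on all 6 arrays.

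With 1 array left out at a time, 6 of the 10 members, Trem2, Gpnmb, Spp1, Lgals3, Cd68 and Adgre1, were called lower in each of the 6 fits. Over all genes, 768 to 1475 were called lower per fit, and how many were lower in each of the 6 was not counted. The calls of Cd9, Lipa and Itgax were all lost when Zip13-KO replicate 1 or 2 was left out. Those of Cd9 and Itgax were lost when WT replicate 3 was left out, those of Itgax and Lipa when Zip13-KO replicate 3 was, and that of Cd9 when WT replicate 1 was, with a difference of -0.51. In the file headers, the barcode of each array holds a further number after that of the slide, here called the slide position. It was 1 for the 3 WT arrays and Zip13-KO replicate 1, and 2 for the other 2 Zip13-KO arrays. Several arrays share a number, and what it stands for was not determined. With the position as a term in the limma fit, which leaves Zip13-KO replicate 1 to set the genotype difference, 0 of the 10 members were called and 9 had an unadjusted p under 0.05, with adjusted p from 0.0578 for Lgals3 to 0.240 for Cd63, while the difference was -4.06 for Trem2 and -1.63 for Lgals3. Within position 1, Zip13-KO replicate 1 lay below every WT array for 10 of the 10 members, as for 35.1% of all genes tested.

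Macrophage markers as a whole were also lower, which sets the background against which the members were read. Of 11 macrophage markers that hold no member, 10 were called lower and 0 higher, from Fcgr1, a high-affinity IgG receptor, at -2.57 (adjusted p = 0.00292) to Csf1r, the receptor of the macrophage growth factor CSF1, at -1.03 (adjusted p = 0.0102). Mertk, a receptor for dying cells, was not called (-0.55, adjusted p = 0.171). The mean log2 intensity of the 11 markers was 13.06, 12.53 and 12.39 in WT and 11.20, 11.04 and 11.49 in Zip13-KO iWAT, a difference of -1.42, or 2.67-fold. As for most members, WT replicate 1 was the highest WT array and Zip13-KO replicate 2 the lowest Zip13-KO array.

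When the macrophage marker mean of the same array was subtracted, the members parted into 3 kinds. Trem2, Spp1, Gpnmb and Cd68 still had every Zip13-KO array below every WT array, with differences of -2.42, -1.80, -0.74 and -0.45 (exact permutation test, two-sided p = 0.1 each, the smallest possible). Among all genes, 0.543% showed that order after the same subtraction. The single markers differed among themselves, from -0.55 for Mertk to -2.57 for Fcgr1. Before the subtraction, Gpnmb (-2.16) and Cd68 (-1.87) lay within that range, and Trem2 (-3.84) and Spp1 (-3.22) lay beyond it. Trem2 minus the marker mean was -0.20, -1.70 and -0.97 in WT and -3.56, -3.43 and -3.15 in Zip13-KO iWAT, a 5.36-fold greater fall than that of the markers. Cd63 and Cd9 had the reverse order, with every Zip13-KO array above every WT array, by 1.07 and 0.82 (exact p = 0.1 each), as did 92.8% of all genes. Relative to the markers, the genotypes overlapped for Lgals3 (-0.20, exact p = 0.3), Adgre1 (-0.22, exact p = 0.3), Lipa (0.42, exact p = 0.2) and Itgax (0.56, exact p = 0.3). With the median of the markers in place of their mean, 6 members had every Zip13-KO array below every WT array, against 0.719% of all genes, and with 1 array left out at a time the count was 4 or 5.

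**Figure D3:**
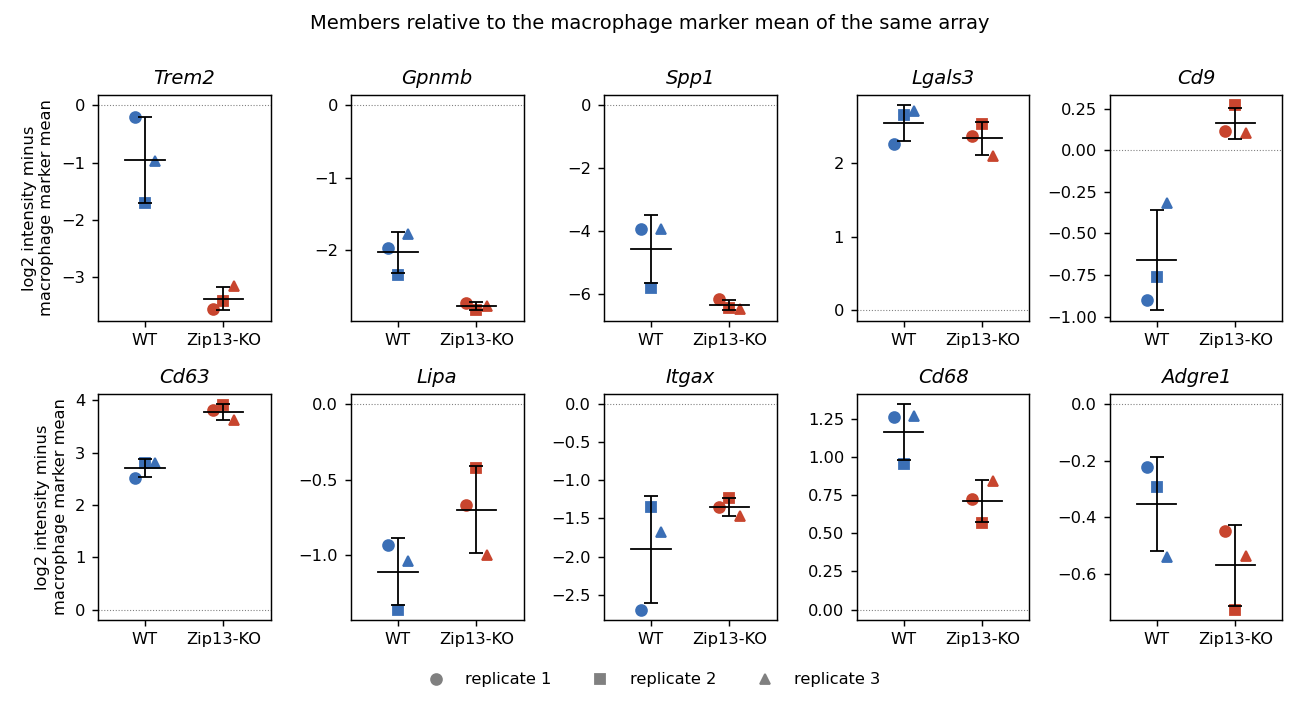
Log2 intensity of each member minus the mean log2 intensity of 11 macrophage markers on the same array, for 3 WT (blue) and 3 Zip13-KO (red) arrays, with the mean and 1 SD, and 0 marked by a dotted line where the axis reaches it. The Zip13-KO arrays lie apart below for Trem2, Gpnmb, Spp1 and Cd68, apart above for Cd9 and Cd63, and overlap with the WT arrays for the other 4.

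Genes with profiles most like the members were sought by the root-mean-square distance over the 6 arrays, with the WT mean of each gene subtracted. The members' median was 0.48, -0.29 and -0.13 in WT replicates 1 to 3 and -1.59, -1.81 and -1.42 in Zip13-KO replicates 1 to 3. The 5 genes nearest to it were Clec4n, the C-type lectin dectin-2 (distance 0.115 log2 units, difference -1.65), Alox5ap, the activating protein of the leukotriene pathway (0.115, -1.70), Lst1 (0.116, -1.69), Cd84 (0.123, -1.71) and S100a4 (0.126, -1.51). Since these genes were picked for this likeness on the same 6 arrays, their falls follow largely from the choice. All 5 were called lower, also with each 1 array left out, though with the mean of its probes the difference of Cd84 was -1.07. Near to Trem2 were Cd5l, a secreted macrophage protein (distance 0.382, difference -3.51), and Clec4d, a C-type lectin (0.466, -4.29). The call of Cd5l was lost when Zip13-KO replicate 1 or 2 was left out.

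**Figure D4:**
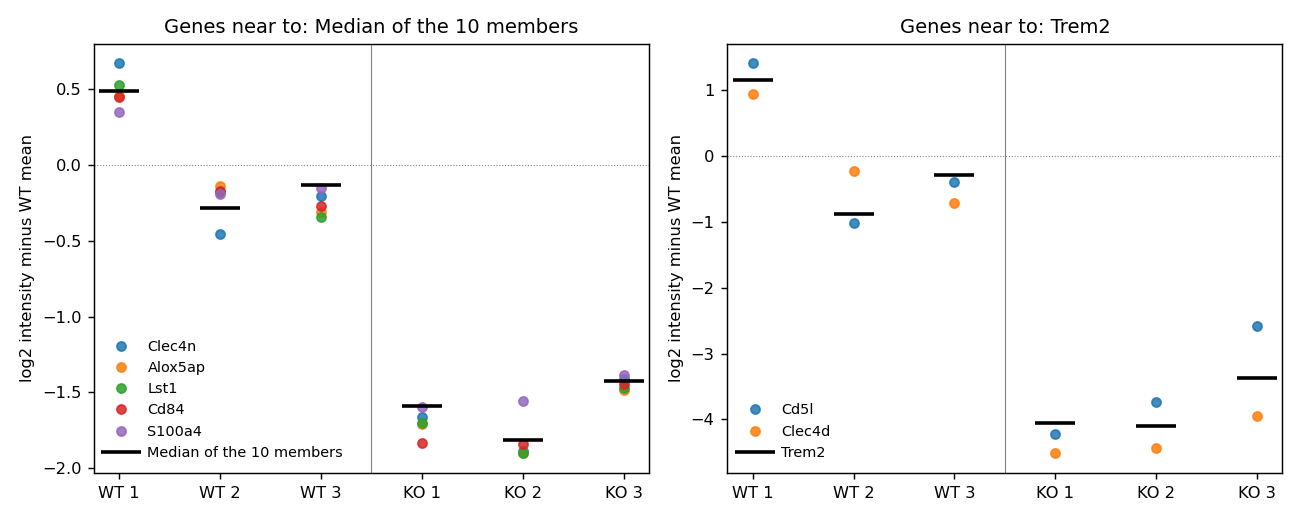
Log2 intensity minus the WT mean on each array for the 5 genes nearest to the median of the members (left) and for Cd5l and Clec4d beside Trem2 (right), with black bars for the median of the members and for Trem2. The genes lie close to the bars on the left and less close on the right, where Clec4d is lowest in WT replicate 3 and Trem2 in WT replicate 2. All Zip13-KO arrays lie below all WT arrays, which follows largely from the choice of genes by profile.

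Of 19 other genes of the lipid-associated macrophage programme, 5 were lower, 2 were higher and 12 were not called, with a median difference of -0.11. All were read in whole tissue, in which the 7 adipocyte markers had a median difference of 0.99. Which cells the signal of these 19 genes came from was not tested. Atp6v0d2, a subunit of the lysosomal proton pump that macrophages and osteoclasts carry, went from 8.04, 7.57 and 8.03 in WT to 4.92, 4.13 and 5.42 in Zip13-KO iWAT, a log2 difference of -3.05 (adjusted p = 0.00504). Mmp12, the macrophage elastase, did not rise well above background in the Zip13-KO arrays and was at least 3.95-fold lower on the processed signal. It entered the fit only through the WT arrays, a choice that favours a fall, and is among the 5 lower genes. Its bound sets, on each Zip13-KO array, the lowest signal well above background in place of the probe's own where that is lower. Tyrobp, the adaptor of TREM2, Capg, an actin-capping protein, and the lysosomal protease Ctss had differences of -1.48, -1.32 and -1.30. The fatty acid carrier Fabp5 rose by 0.91 (adjusted p = 0.0135) and the fatty acid transporter Cd36 by 0.71 (adjusted p = 0.0266). The call of Fabp5 was lost when Zip13-KO replicate 1 or 2 was left out, and that of Cd36 when WT replicate 1 or any 1 Zip13-KO array was, while with normexp the difference was -1.70 for Atp6v0d2 and -0.60 for Mmp12, which is less than the bound above. Among the genes not called, Cstb (-0.56, adjusted p = 0.0128), Ctsz (-0.53, adjusted p = 0.0165) and Ctsl (-0.47, adjusted p = 0.0407), an inhibitor of lysosomal proteases and a pair of such proteases, passed the p but not the fold threshold. So did Acp5, which was higher in Zip13-KO iWAT (0.46, adjusted p = 0.0381). The others included Lpl (0.49, adjusted p = 0.0530), Fabp4 (0.20), Plin2 (0.34), Ctsb (-0.11), Ctsd (0.17), Npc2 (-0.04) and Apoe (-0.19).

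Around TREM2, 7 of 11 genes of its ligands, sheddases and signalling were lower and 0 higher, with a median of -0.66. These 7 were the signalling genes, with Tyrobp at -1.48, the kinase Syk at -0.99, Vav1 at -0.84, the phosphatase Inpp5d at -0.77, the kinase Btk at -0.75, the phospholipase Plcg2 at -0.66 and the adaptor Hcst, known as DAP10, at -0.63. The ligands Apoe (-0.19, adjusted p = 0.247) and Clu (-0.45, adjusted p = 0.0301) and the sheddases Adam10 (-0.36) and Adam17 (0.12) did not pass both thresholds. The call of Hcst was lost when Zip13-KO replicate 1 was left out. Most of these signalling genes also serve lymphocytes or other myeloid cells.

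Of 9 partners of osteopontin, galectin-3 and CD11c, 4 were lower and 0 higher, with a median of -0.51. Itgb2, which encodes the CD18 chain that pairs with CD11c, was at -1.17 (adjusted p = 0.00276), the osteopontin receptor Cd44 at -1.07, and the integrin chains Itga4 and Itgb3 at -0.91 and -0.82. Itgb5, another integrin chain that osteopontin binds, was at 0.02 (adjusted p = 0.944). Of 12 other tetraspanins, 2 were lower and 0 higher. Both Cd53 (-0.89) and Cd37 (-0.59) are tetraspanins of blood cells, whereas Tspan7 stood at 0.54 and the median of the group was 0.17. The call of Itgb3 was lost when WT replicate 3 or any 1 Zip13-KO array was left out, and that of Cd37 when WT replicate 1 or 3 or Zip13-KO replicate 1 was.

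Genes of macrophage sterol handling, also read in whole tissue and not in macrophages alone, were split, with 3 of 10 lower and 1 higher (median -0.20). The scavenger receptor Msr1 was at -1.45, the cholesterol-esterifying enzyme Soat1 at -1.27 and the cholesterol exporter Abcg1 at -0.81, while Cd36 was higher and the exporter Abca1 was at -0.03 (adjusted p = 0.905). Of 6 MiT/TFE factors and macrophage growth factors, 2 were lower and 0 higher (median -0.38). Tfec, a MiT/TFE factor of macrophages, was at -1.17 (adjusted p = 0.0155) and Csf1, the macrophage growth factor, at -0.63 (adjusted p = 0.0295). Mitf was at -0.49, Tfe3 at -0.26, Tfeb at -0.18 and Il34, the other ligand of the CSF1 receptor, at 0.24. The call of Abcg1 was lost when any 1 array other than WT replicate 2 was left out, and that of Csf1 when any other than WT replicate 3 was. With normexp, Soat1 was at -0.79, and Tfec at -0.45 and not called.

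**Figure D5:**
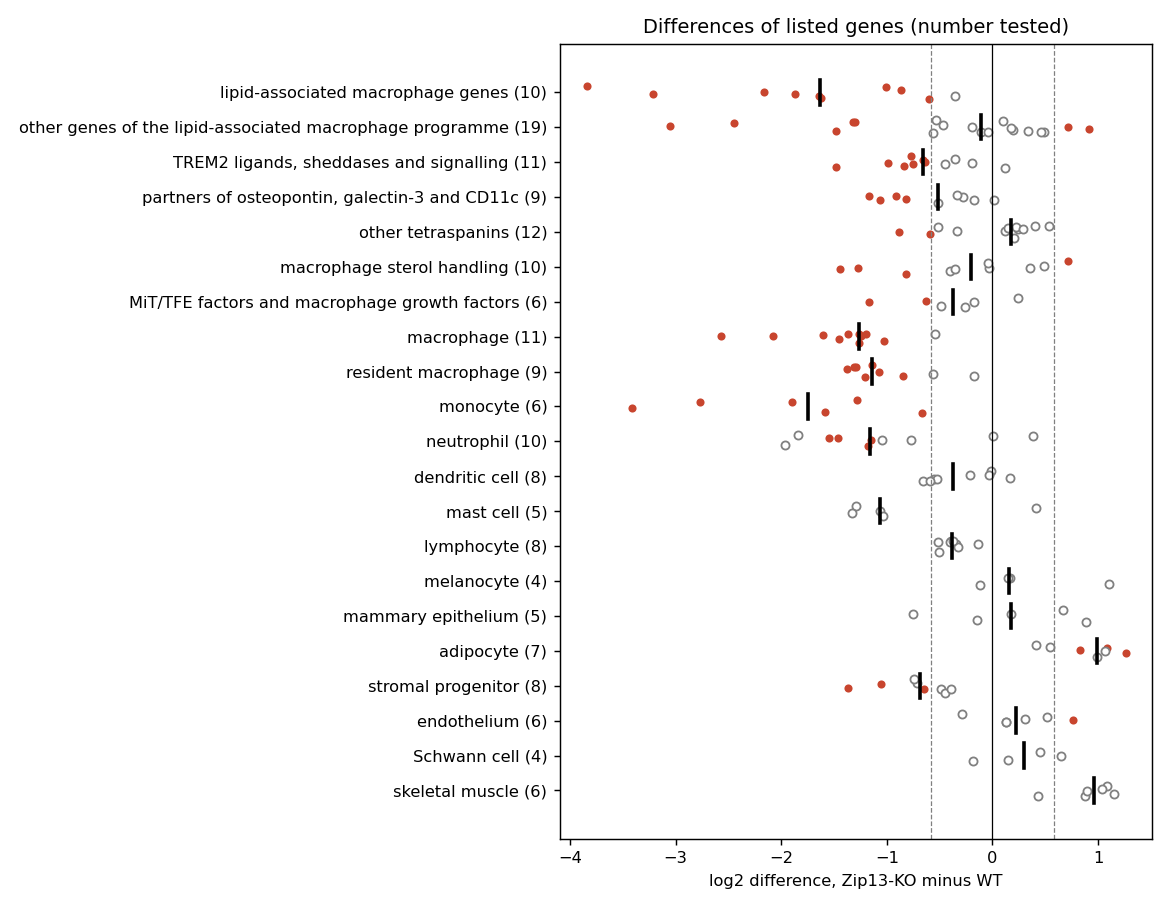
Log2 difference, Zip13-KO minus WT, of each tested gene of the 10 members, 6 pathway lists and 14 marker lists, with called genes filled, dashed lines at 1.5-fold and a black bar at the median of each list. The members and the marker lists of macrophages, resident macrophages, monocytes, neutrophils, dendritic cells, mast cells, lymphocytes and stromal progenitors lie mostly left of 0. The adipocyte and muscle lists lie to the right, though 0 muscle markers were called.

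Markers of other cells in the tissue were read on the same arrays. Of 9 markers of resident macrophages, 7 were lower, from Pf4 at -1.38, with Timd4 at -0.18, and of 6 markers of monocytes all 6 were lower, from F10, coagulation factor X, at -3.41 (-2.20 with normexp). The count for resident macrophages was 2 when WT replicate 2 or Zip13-KO replicate 1 was left out and 1 when Zip13-KO replicate 2 was, and that for monocytes was as low as 4. Of 10 neutrophil markers 4 were lower, with Mmp8 at -1.96 (adjusted p = 0.140) and Mmp9 at 0.38, and the count was 1 when any 1 WT array or Zip13-KO replicate 2 was left out. Of 8 stromal progenitor markers 3 were lower, with Ly6a at -1.37 and Dcn at -0.40 (adjusted p = 0.191), and that count was 7 with WT replicate 3 left out, 1 with WT replicate 2 left out and 0 with Zip13-KO replicate 1 or 2 left out. By limma, 0 of 8 dendritic cell markers (Ccr7 at -0.66, Cd209a at 0.17), 0 of 5 mast cell markers (Cma1 at -1.33, Kit at 0.41) and 0 of 8 lymphocyte markers (Cd8a at -0.52, Cd4 at -0.14) were called, with 3, 5 and 6 of them at an unadjusted p under 0.05. With WT replicate 3 left out, 4 mast cell markers were called lower, and with WT replicate 1 left out 2 dendritic cell markers and 1 lymphocyte marker were.

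The summed linear intensity of the macrophage list was 102036 to 164212 in WT and 44195 to 60811 in Zip13-KO arrays. That of the monocyte list was 24027 to 36418 and 8873 to 11804, and that of the lymphocyte list, which lymph node tissue also carries, 43296 to 52434 and 33592 to 36609. The adipocyte list went the other way, at 207271 to 333557 in WT and 462828 to 476216 in Zip13-KO arrays, with 3 of 7 markers higher, Gpd1 at 1.26 and Adipoq at 0.41. The 3 calls, of Gpd1, Slc2a4 and Plin1, were all lost when any 1 Zip13-KO array was left out. The mast cell list, at 6984 to 22018 in WT and 4675 to 6694 in Zip13-KO arrays, was higher in every WT array. The stromal list, at 204255 to 417821 in WT and 177998 to 219696 in Zip13-KO arrays, overlapped between the genotypes. The part that the cell make-up of the pad has in the members' differences was not tested.

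The other lists gave 1 call. Cdh5, the endothelial cadherin, was higher by 0.77 among 6 endothelial markers (Vwf at -0.29). By limma, 0 of 4 melanocyte markers (Dct at 1.11, Mlana at -0.12), 0 of 5 mammary markers (Krt5 at 0.89, Wfdc18 at -0.75), 0 of 4 Schwann cell markers (Mbp at -0.18) and 0 of 6 muscle markers (Ckm at 1.15, Acta1 at 0.43) were called, with 1, 1, 2 and 0 at an unadjusted p under 0.05. Gpnmb is also a melanocyte gene, and the melanocyte list summed to 282 to 468 in WT and to 461 to 586 in Zip13-KO arrays. The part of melanocytes in the difference of Gpnmb was not tested.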

How the data were processed

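RNA from the iWAT of 3 WT and 3 Zip13-KO mice was measured on Agilent SurePrint G3 Mouse arrays in the 1-colour assay. The scanner files that the authors deposited came from Feature Extraction 11.5.1.1, and their processed signal is in intensity units, with background and slide trends already subtracted. They also deposited a table of log2 intensities, quantile normalized between arrays, which follows the median signal without background correction. The members and gene lists were chosen with earlier results of these data known.

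Controls and outlier spots were dropped, log2 processed signals were averaged over the spots of each probe, and quantile normalization was applied. Probes entered the fit when either genotype had them well above background in its 3 arrays. Symbols came from RefSeq GRCm38.p6 by accession without version, which named 28331 of 55681 probes and 20313 of the 33041 kept ones. The brightest kept probe stood for a gene, and 13 probes had no value on at least 1 array. In all, 15302 genes were fitted with limma 3.58.1 (lmFit, eBayes) in R 4.3.3, without covariates, with Benjamini-Hochberg adjustment over all of them. The fit and the calling rule, but not the steps before them, were also run on simulated data. Genes with an adjusted p under 0.05 and a change over 1.5-fold, the thresholds of the study's methods, were called. The number of arrays limits the precision, and the median local background was 31 to 39.5 intensity units.

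Named genes were all members and their probes, the tested gene with the greatest rise and that with the greatest fall in each list, Slc39a13, the 5 genes nearest to the members' median and the 3 nearest to Trem2. Some genes that this rule names are not reported here. Other genes in the text were named after their values were seen. Alternatives were 75th percentile scaling, normexp (offset 50) and no background correction, both on the median signal since the files used hold no mean signal, the deposited table, other filters, the mean of a gene's probes, limma's trend and robust options, the replicate block, the slide position, the methods' t-test, other thresholds and leaving out each array.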

Additional observations from a re-analysis of the deposited data

How the results depend on the processing

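All 10 members kept the direction of their difference under each of 20 alternatives. Trem2, Gpnmb, Lgals3 and Cd68 were called under 19 of them, all but the slide position, Adgre1 under 18, Spp1 under 17, Cd9 and Lipa under 12 and Itgax under 11. The median difference of all genes was 0.026 under 75th percentile scaling, and Cd9 was then at -0.52 and not called. With the slide position as a term, limma called 0 members and 7 genes, 0 higher and 7 lower, where 2724 and 2079 had an unadjusted p under 0.05, and fewer residual degrees of freedom were left. With the methods' t-test alone, which the study combined with a median-ratio test not run here, and with Benjamini-Hochberg adjustment, 5 members and 1729 genes were called, 1008 higher and 721 lower. At an adjusted p under 0.01, 4 members and 1212 genes were called, 707 higher and 505 lower, and without a fold threshold 5282 genes, 2952 higher and 2330 lower. With 1 array left out at a time, 6 to 9 members, 7 to 10 member probes and 1723 to 3102 genes were called, 955 to 1670 higher and 768 to 1475 lower, the lowest without Zip13-KO replicate 1 (1723) or 2 (1805). Slc39a13 was then at -4.46 to -4.18 and 4 to 5 members lay below the macrophage markers. Arrays with the same replicate number did not deviate together (r = -0.021, 0.038 and -0.080 across genes). This cannot exclude that the numbers pair the mice, since the study used WT littermates and the labels do not say which mice were siblings. With the replicate block 7 members and 2329 genes were called, 1278 higher and 1051 lower, with Itgax at an adjusted p of 0.0526 and Lipa at 0.0517. Of 400 recomputed counts of listed genes called lower, 341 stayed within 1.5 times and 59 moved further. Lists with 0 genes called lower, such as the lymphocyte and endothelial lists, are among them. Their counts can only stay at 0 or rise, so the 341 is not a measure of how stable the other lists are. Of 66 other listed or nearest genes that were called, 40 were called the same way with each 1 array left out and 0 the opposite way under any alternative. The cause of these changes was not tested. Signal over background limits dim probes such as those of Spp1 and Mmp12.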
